A study of Homo sapiens with 12 samples.

Results

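The genes described here are 58 transcription factors that pattern the embryo and lie outside the HOX clusters: 7 PAX, 7 SOX, 7 TBX, 8 LHX, 5 NKX, 7 FOX, 4 DLX and 4 IRX genes, with SIX2, SIX3, SIX6, EN1, EN2, GBX2, OTX2, EMX1 and POU4F1. Membership goes by gene symbol. Each was matched to the enriched regions that the deposited tables place inside the gene or within 5000 bases of its promoter. By this rule 44 of the 58 genes had a region of 5-hydroxymethylcytosine (5hmC; 184 of 327931 regions) and 21 had a listed region of 5-methylcytosine (5mC; 32 of 65535 regions). In all, 20404 gene symbols had a 5hmC region and 12637 a 5mC region.

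The cells were HL-60, an established human myeloid leukemia line. Undifferentiated cells received no DMSO and were sorted as viable and CD11b-negative; differentiated cells were grown for 7 days in 1.5% (211 mM) DMSO, which drives this line toward neutrophil-like cells, and were sorted as viable and CD11b-positive. Each state had 3 biological replicates, and the DNA of each was divided between an antibody against 5mC (methylated DNA immunoprecipitation) and an antibody against 5hmC (hydroxymethylated DNA immunoprecipitation), which gave 12 libraries. Both groups are fractions of 1 cell line, so replicates are cultures of that line and not donors. Antibody capture gives an amount of marked DNA rather than a modified share of cytosines, and RNA was not measured.

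PAX, SOX, T-box, LIM-homeodomain, NK, forkhead, DLX and Iroquois proteins bind DNA and set the identity of tissues such as the neural tube, muscle, kidney, heart and limb. Their genes sit in long CpG islands that are mostly free of methylation in healthy cells, and in blood cells, where most of them are silent, they are classic targets of Polycomb repression. 5mC is written by DNA methyltransferases, and TET enzymes oxidise it to 5hmC, so that 5hmC can only arise where 5mC has been.

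The start sequences of 6 of the genes are shown for how dense CpG is at starts of genes with and without a 5hmC region. Whether these bases lie inside the marked regions was not determined. Each line gives the 250 bases before the start, 5′ to 3′, from RefSeq (GRCh38.p14, a build other than that of the regions), with CG in capitals. SOX1, POU4F1, DLX1 and PAX8 had a 5hmC region at promoter distance 0 that passed as higher in differentiated cells, and FOXC1 and FOXD3 had no 5hmC region by the matching rule.

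SOX1: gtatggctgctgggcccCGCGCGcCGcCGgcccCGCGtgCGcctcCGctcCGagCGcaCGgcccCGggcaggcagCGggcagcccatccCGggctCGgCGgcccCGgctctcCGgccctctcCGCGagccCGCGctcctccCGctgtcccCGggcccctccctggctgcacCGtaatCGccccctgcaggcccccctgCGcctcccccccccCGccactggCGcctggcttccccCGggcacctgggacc
POU4F1: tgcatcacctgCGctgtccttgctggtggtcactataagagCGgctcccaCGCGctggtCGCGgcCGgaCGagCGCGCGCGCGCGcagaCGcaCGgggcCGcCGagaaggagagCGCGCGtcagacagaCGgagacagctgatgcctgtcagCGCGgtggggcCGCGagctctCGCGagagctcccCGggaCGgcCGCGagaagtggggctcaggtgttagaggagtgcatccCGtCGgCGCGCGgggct
DLX1: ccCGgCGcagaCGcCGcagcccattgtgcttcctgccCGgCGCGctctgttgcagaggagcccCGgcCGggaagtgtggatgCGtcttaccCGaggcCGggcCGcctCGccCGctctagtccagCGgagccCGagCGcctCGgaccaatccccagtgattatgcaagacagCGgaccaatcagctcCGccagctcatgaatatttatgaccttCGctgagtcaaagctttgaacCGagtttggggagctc
PAX8: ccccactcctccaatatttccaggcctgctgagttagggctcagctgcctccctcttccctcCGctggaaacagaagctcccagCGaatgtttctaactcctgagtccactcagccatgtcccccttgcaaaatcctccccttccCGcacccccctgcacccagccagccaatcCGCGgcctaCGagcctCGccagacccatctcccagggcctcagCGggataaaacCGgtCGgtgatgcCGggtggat
FOXC1: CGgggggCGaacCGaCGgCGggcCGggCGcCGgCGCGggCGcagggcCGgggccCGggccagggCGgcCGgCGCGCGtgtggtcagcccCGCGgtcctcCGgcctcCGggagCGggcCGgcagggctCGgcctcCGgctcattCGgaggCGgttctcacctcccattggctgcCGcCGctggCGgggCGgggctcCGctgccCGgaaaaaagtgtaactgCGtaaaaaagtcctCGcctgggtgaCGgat
FOXD3: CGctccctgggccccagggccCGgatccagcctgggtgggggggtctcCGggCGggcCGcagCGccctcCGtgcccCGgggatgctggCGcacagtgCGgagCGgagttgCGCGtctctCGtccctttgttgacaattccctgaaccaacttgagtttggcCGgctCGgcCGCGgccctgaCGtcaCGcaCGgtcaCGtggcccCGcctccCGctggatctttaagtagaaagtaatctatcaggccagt

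The SOX1 stretch (chr13:112066899-112067148, plus strand) held 31 CpG and the POU4F1 stretch (chr13:78603553-78603802, minus strand) 37. DLX1 (chr2:172085257-172085506, plus strand) had 23 and PAX8 (chr2:113278922-113279171, minus strand) 11, a count that 50.3% of all RefSeq starts reached. FOXC1 (chr6:1609665-1609914, plus strand) held 37 CpG and FOXD3 (chr1:63322317-63322566, plus strand) 24. Starts were matched by symbol for 36 of the 58 genes. Their median was 24.5 CpG in 250 bases against 12 over 27305 genes, and 69.4% held at least 20 CpG against 36.0% of all. The 9 matched genes without a 5hmC region had a median of 26 and the 27 with one a median of 23. Dense CpG at the start was thus present in genes with and without the mark.

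The 14 genes without a 5hmC region were SOX14, SOX17, NKX2-1, NKX6-1, NKX6-2, SIX6, FOXA1, FOXC1, FOXC2, FOXD3, FOXE1, FOXF1, IRX1 and GBX2. They made up 24.1% of the 58, whereas 9.90% of the 22645 symbols named in the 5hmC table had no region by the same rule. FOXC2 is among the 14 but is not named in that table, so these shares have unlike bases. Forkhead genes, which include pioneer factors of endoderm and mesoderm, were the largest group among the 14: 6 of 7 lacked a region, FOXA2 being the exception. Of the NKX genes, 3 of 5 lacked one, while all 7 PAX, 7 TBX, 8 LHX and 4 DLX genes had at least one. For 13 of the 14 the tables name a region near the gene that the rule does not take, from 1804 bases away for FOXE1, 2237 for NKX6-1 and 2804 for FOXD3 to 27734 for FOXF1. None of the 14 had a listed 5mC region either. For 5mC, 37 of the 58 genes (63.8%) had no listed region, against 34.3% of the 19228 symbols in the 5mC table. NKX2-1, FOXC2, EMX1 and POU4F1 are among the 37 but are not named in it, so these shares too have unlike bases. IRX5 had a listed 5mC region 6 bases away that the rule does not take. The 5mC table holds only regions ranked by their difference between the states. It ends at 65535 rows, the size limit of an older spreadsheet format, so a gene without a listed region may still carry 5mC. Gene length was not compared, so its part in these shares was not tested.

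Where present, the marked regions lay close to CpG islands far more often than elsewhere. Of the 184 5hmC regions, 42 (22.8%) touched an island, against 1.73% of all 5hmC regions and 2.59% of those assigned to any gene. Another 42 (22.8%) were island shores, here within 2000 bases of an island, against 5.66% of all. The 184 regions were 400 to 2800 bases wide with a median of 600 and covered 144.4 kb. Of the 32 listed 5mC regions, 7 (21.9%) touched an island against 2.35% of all. Another gene symbol shared 20 of the 5hmC and 4 of the 5mC regions, and no region belonged to 2 of the 58 genes.

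The level of 5hmC per length was near that of other genes. Over all 6 libraries the 44 genes had a median of 2.78 CPM per kb of region (CPM are read counts scaled to a common library total, here adjusted by the trimmed mean of M values, TMM), with an interquartile range of 2.37 to 3.62, against 2.55 (2.19 to 3.06) over all genes. For 5mC the 21 genes had a median of 6.88 CPM per kb against 7.31. The sum per gene followed how many regions it had. PAX7, a factor of muscle stem cells and neural crest, had 26 regions and the highest mean 5hmC CPM, followed by PAX2, which builds kidney and optic nerve, with 19, and PAX8, of thyroid and kidney, with 14. FOXA2, of endoderm, SOX1, of neural progenitors, and LHX9, of the early gonad, had the lowest sums, each from 1 region. Raw counts per gene and library ran from 3 to 2854 for 5hmC and from 11 to 261 for 5mC. The 5hmC libraries held 13010267 to 33693880 counts in regions. Only FOXA2 and SOX1 had a library with fewer than 10 counts, and all 44 and 21 genes passed the filter on low counts.

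Between the states, 5hmC passed as higher after differentiation at most of these genes and as lower at none, under the TMM scaling. By the quasi-likelihood test of edgeR, 29 of 44 passed as higher in differentiated cells and 0 as lower, while 15 did not pass. The p-values were adjusted after Benjamini and Hochberg for all 20404 genes. The background of these adjusted calls is 27.6% of all genes higher and 24.2% lower. An unadjusted p under 0.05 was found in 32 of the 44, a count that was not made over all genes. The median log2 fold change, differentiated over undifferentiated, was 0.44 for the 44 genes (interquartile range 0.27 to 0.66) and 0.026 for all genes, and it was positive in 38 of 44. The 3 libraries of each state did not overlap in 31 of the 44 genes, all 31 higher, where 29.4% of all genes were separated in that direction and 27.9% in the other.

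The count depended on the scaling between libraries. TMM factors were 1.06 to 1.098 in undifferentiated and 0.859 to 0.983 in differentiated libraries, so they differed between the states. Scaled by library totals without TMM, the median of all genes moved to −0.19. Then 13 of the 44 passed as higher and 4 as lower (FOXA2, PAX3, PAX9 and TBX20). Of all 20404 genes, 1591 passed as higher and 8545 as lower under this scaling. With TMM taken from the strongest 10% of regions the median of all genes moved to −0.26. Here 11 of the 44 passed as higher and 6 as lower, NKX2-5 and TBX1 being the 2 added. Of all genes, 1028 passed as higher and 10365 as lower. The median of the genes tested lay 0.36 to 0.42 above that of all genes over the settings run. A change of scaling shifts all genes by nearly the same amount, so this distance could hardly move with the scaling and does not test it. The number that rose or fell did move.

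**Figure D1:**
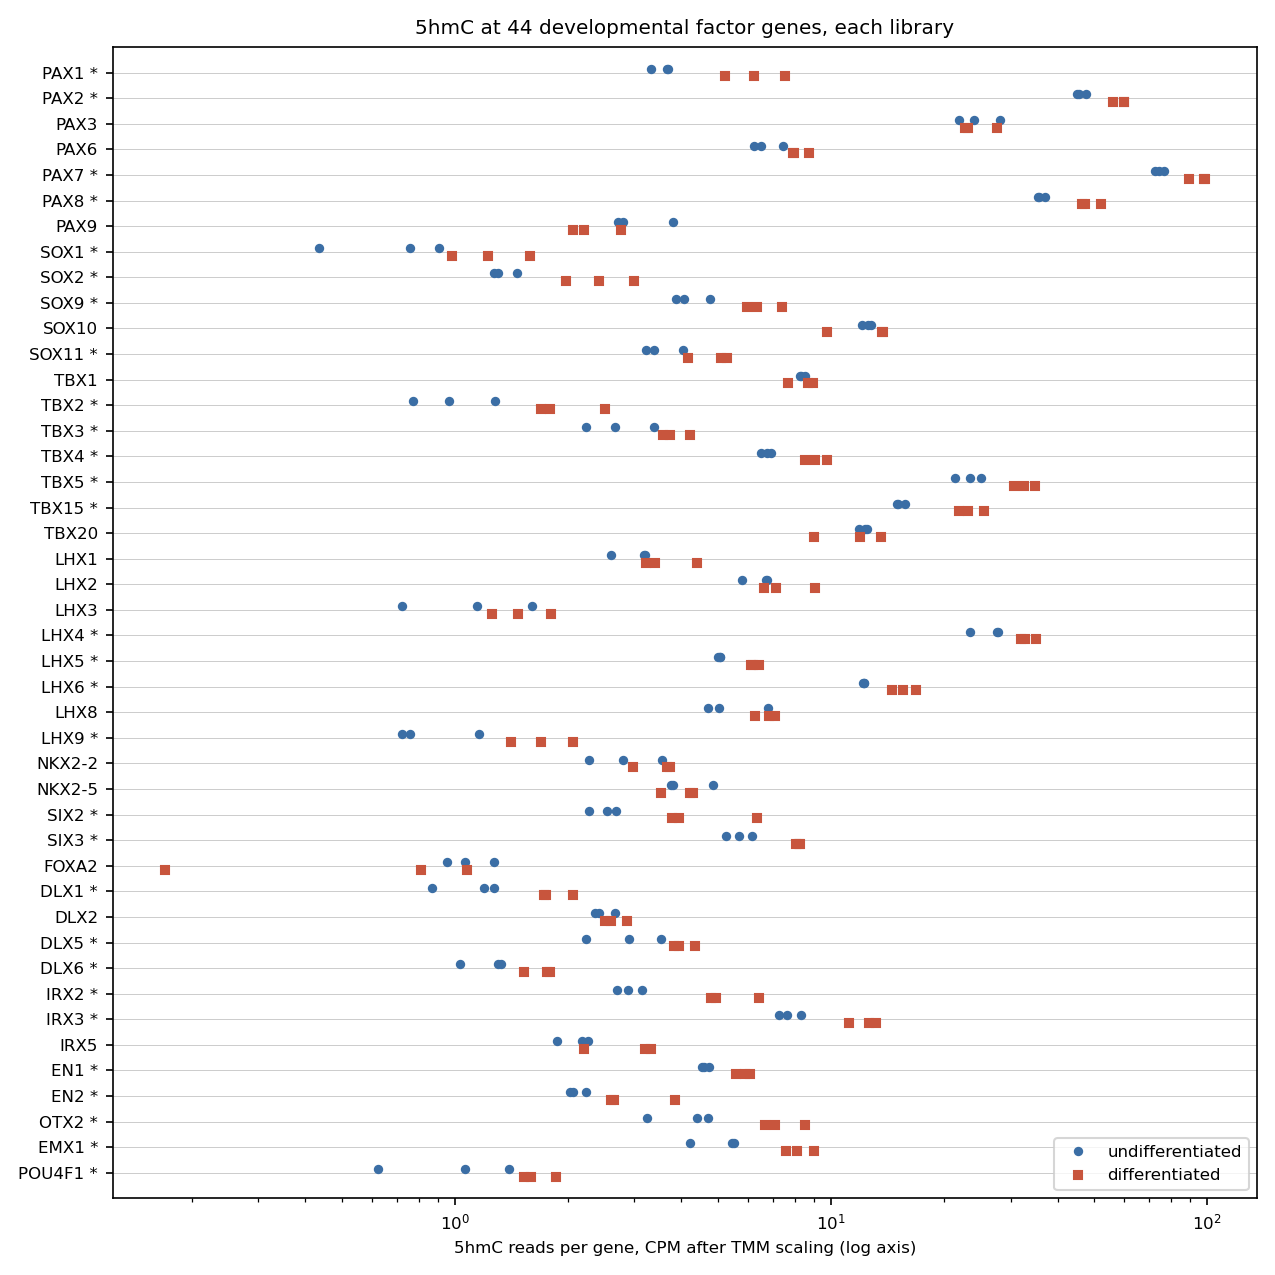
5hmC CPM (log axis, TMM scaled) of the 44 genes with a 5hmC region, 1 row per gene; circles are the 3 undifferentiated and squares the 3 differentiated libraries, and an asterisk marks an adjusted p under 0.05 (edgeR). In 31 rows all squares lie to the right of all circles, and FOXA2 has 1 differentiated library far to the left at 0.169 CPM; under library totals without TMM 13 genes passed as higher and 4 as lower.

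TBX2, a T-box repressor of heart and limb patterning, rose most. Its single region held 1.28, 0.772 and 0.966 CPM in undifferentiated and 1.69, 1.79 and 2.50 in differentiated libraries. The states did not overlap, and the log2 fold change was 0.99 (SE 0.24, edgeR adjusted p = 0.00396). LHX9 held 0.760, 1.16 and 0.724 CPM before and 1.69, 2.06 and 1.41 after differentiation. All of its differentiated libraries were higher than all undifferentiated ones, with a log2 fold change of 0.91 (SE 0.24, edgeR adjusted p = 0.00775), and without undifferentiated replicate 1 its adjusted p was 0.062.

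SOX1 and SOX2 keep neural progenitors undifferentiated. SOX1 held 0.760, 0.434 and 0.905 CPM in undifferentiated and 1.58, 0.985 and 1.22 in differentiated libraries, a log2 fold change of 0.87 (SE 0.27, edgeR adjusted p = 0.0178). SOX2 held 1.46, 1.30 and 1.27 CPM and then 2.99, 2.42 and 1.97, a change of 0.79 (SE 0.21, edgeR adjusted p = 0.00617). Both genes rose and separated the states. SOX3, the other gene of their subfamily and not among the 58, held 1.03, 0.868 and 1.09 CPM and then 1.30, 0.269 and 1.28, with overlap (0.12, SE 0.32, edgeR adjusted p = 0.760). SOX1 had 9 to 39 reads per library, and its adjusted p was 0.064 without undifferentiated replicate 2 and 0.079 without differentiated replicate 1.

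OTX2, which specifies forebrain and eye, held 4.39, 3.23 and 4.71 CPM in undifferentiated and 7.10, 8.51 and 6.67 in differentiated libraries, without overlap (log2 fold change 0.81, SE 0.14, edgeR adjusted p = 5.92e-04). Its only region lies inside the antisense gene OTX2-AS1, upstream of OTX2. POU4F1, a POU factor of sensory neurons, held 0.624, 1.06 and 1.39 CPM and then 1.86, 1.52 and 1.60. Its lowest differentiated library was only slightly above its highest undifferentiated one, and its log2 fold change of 0.83 (SE 0.27, edgeR adjusted p = 0.0188) dropped to 0.46 (adjusted p = 0.166) without undifferentiated replicate 1 and had an adjusted p of 0.071 without differentiated replicate 1. DLX1, which directs interneurons of the forebrain, held 1.19, 0.868 and 1.27 CPM and then 1.75, 2.06 and 1.72, again without overlap (0.69, SE 0.21, edgeR adjusted p = 0.0144; 0.053 without undifferentiated replicate 2). EMX1, of the cerebral cortex, held 5.53, 5.45 and 4.23 CPM and then 9.02, 7.61 and 8.11 (0.68, SE 0.12, edgeR adjusted p = 5.49e-04).

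SIX2, which maintains nephron progenitors, held 2.69, 2.27 and 2.54 CPM in undifferentiated and 3.78, 6.36 and 3.95 in differentiated libraries (log2 fold change 0.81, SE 0.19, edgeR adjusted p = 0.00351). Differentiated replicate 2 stood above the other two, but all 3 were above the undifferentiated libraries. PAX1, of the vertebral column and thymus, held 3.31, 3.67 and 3.68 CPM and then 6.26, 7.52 and 5.23 (0.79, SE 0.15, edgeR adjusted p = 8.15e-04). IRX2, an Iroquois factor, held 2.88, 2.70 and 3.14 CPM and then 4.79, 6.45 and 4.95 (0.85, SE 0.15, edgeR adjusted p = 4.80e-04). Neither gene's libraries overlapped. Without the regions that another symbol shares, IRX2 fell short of the threshold at 0.47 (adjusted p = 0.102).

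The genes with the most 5hmC changed by less, with tighter replicates. PAX7 held 74.4, 72.8 and 76.8 CPM in undifferentiated and 98.6, 98.2 and 89.4 in differentiated libraries, a log2 fold change of 0.35 (SE 0.055, edgeR adjusted p = 2.82e-04). PAX2 held 47.5, 44.9 and 45.6 CPM and then 59.9, 60.2 and 56.3, also 0.35 (SE 0.053, edgeR adjusted p = 2.38e-04). PAX8 held 35.5, 37.0 and 35.7 CPM and then 47.4, 52.3 and 46.4, or 0.43 (SE 0.058, edgeR adjusted p = 1.11e-04). In these 3 genes every differentiated library was above every undifferentiated one; without TMM the rises of PAX7 (0.13, adjusted p = 0.089) and PAX2 (0.12, adjusted p = 0.137) did not pass. TBX15, a T-box factor of the skeleton, had the smallest adjusted p of the 44 genes (log2 fold change 0.60, SE 0.069, 15.3 ± 0.409 to 23.4 ± 1.83 CPM, edgeR adjusted p = 4.57e-05).

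By number of regions, 10 of the 13 genes with 1 region passed as higher (median log2 fold change 0.69, from −0.65 to 0.99), 11 of the 19 with 2 to 4 regions (0.44, −0.30 to 0.85) and 8 of the 12 with 5 or more (0.35, −0.092 to 0.60). Of all genes with as many regions, 27.5%, 26.3% and 28.5% passed as higher, with medians of 0.096, 0.052 and 0.010.

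By family, 4 of 7 PAX, 4 of 5 SOX, 5 of 7 TBX, 4 of 8 LHX, 3 of 4 DLX and 2 of 3 IRX genes with a region passed as higher, as did SIX2, SIX3 and all 5 of EN1, EN2, OTX2, EMX1 and POU4F1. The 2 NKX genes and FOXA2 did not pass, and over all genes 27.6% passed as higher. Without TMM these counts were 2 PAX, 2 SOX, 3 TBX, 1 LHX, 0 DLX and 2 IRX genes, 1 of SIX2 and SIX3, and 2 of the last 5. Of all 20404 genes, 1591 passed as higher without TMM. The difference between families was not tested. FOXA2 had the lowest log2 fold change of the 44 genes: its single region held 0.950, 1.06 and 1.27 CPM in undifferentiated and 0.169, 1.07 and 0.814 in differentiated libraries, with overlap (−0.65, SE 0.36, edgeR adjusted p = 0.145). The lowest of these libraries, differentiated replicate 1, held 3 reads, and without it the change was −0.25 (adjusted p = 0.466). Without differentiated replicate 2 it passed as lower (−0.86, adjusted p = 0.042).

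Among the 15 genes that did not pass was PAX3, of muscle progenitors and neural crest, which held 23.9, 21.9 and 28.2 CPM before and 22.7, 27.6 and 23.1 after differentiation, so its libraries overlapped fully (−0.024, SE 0.090). SOX10, of neural crest and glia, held 12.6, 12.1 and 12.7 CPM and then 13.7, 9.76 and 13.8 (0.044, SE 0.10). TBX20, of the heart, held 11.8, 12.3 and 12.4 CPM and then 9.02, 13.6 and 11.9 (−0.092, SE 0.11). All 3 had 5 or more regions, and in none were the states separated.

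Single regions gave the same picture with exceptions inside genes. Of the 184 5hmC regions, 90 passed as higher and 15 as lower (edgeR, adjusted over 327900 regions), where 27% of all regions were higher and 23.3% lower. Without TMM the 184 split into 44 higher and 25 lower, and with TMM from strong regions into 30 and 33. Of the 327901 regions tested, 46026 were higher and 118325 lower without TMM, and 34487 and 133562 with TMM from strong regions. In the authors' deposited table, 85 of the 184 had an adjusted p under 0.05 and were higher in differentiated cells and 12 were lower. These deposited calls were not counted over all 5hmC regions, so they have no background here. Regions at promoter distance 0, as deposited, were higher in 11 of 17 and lower in 0, against 35.3% and 11.8% of all such regions. How far that distance of 0 reaches around a start was not stated. Regions in the gene body and not within 5000 bases of the promoter were higher in 67 and lower in 14 of 137, against 24.3% and 25.2% of such regions of all genes.

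The largest rises of single regions lay in bodies of T-box and PAX genes, outside islands. The region at chr1:119467401-119467800 (hg19) in TBX15 held 0.434, 0.482 and 0.604 CPM in undifferentiated and 1.30, 1.16 and 1.72 in differentiated libraries, a log2 fold change of 1.59 (SE 0.30, edgeR adjusted p = 4.13e-05). The PAX7 region at chr1:18993601-18994200 held 1.55, 0.965 and 0.966 CPM and then 3.33, 3.31 and 2.97 (1.35, SE 0.20, edgeR adjusted p = 1.66e-06). The TBX5 region at chr12:114839401-114839800, a shore 512 bases from an island, held 0.841, 0.627 and 0.664 CPM and then 1.47, 2.24 and 1.75 (1.26, SE 0.26, edgeR adjusted p = 1.70e-04). TBX5 is the factor of heart and forelimb. In all 3 regions the states did not overlap.

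The largest falls were also far from islands. LHX8, of cholinergic neurons, fell at chr1:75620801-75621200, where it held 1.46, 1.93 and 1.51 CPM before and 1.01, 0.537 and 0.626 after differentiation (−1.15, SE 0.27, edgeR adjusted p = 7.55e-04). PAX3 fell at chr2:223097601-223098000, from 1.03, 0.772 and 1.27 to 0.338, 0.448 and 0.532 CPM (−1.13, SE 0.34, edgeR adjusted p = 0.00528). PAX6, the master factor of the eye, fell at chr11:31811201-31811800, from 1.79, 1.30 and 2.29 to 0.733, 0.806 and 0.877 CPM (−1.11, SE 0.26, edgeR adjusted p = 6.80e-04). None of these libraries overlapped between the states. Whether the positions are exonic or intronic was not determined, since no annotation of hg19 was used here.

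Opposite changes inside 1 gene occurred in 9 of the 44, against 41.1% of all genes: LHX2, LHX6, LHX8, PAX2, PAX3, PAX6, TBX1, TBX15 and TBX20 had regions that passed in each direction. In 27 genes only higher regions passed, in NKX2-5 and PAX9 only a lower one, and in 6 none, against 21%, 22.8% and 15% of all genes. These shares depend on how many regions a gene has: none of the 13 genes with 1 region could hold both directions, and of the 12 with 5 or more 6 did, against 69.7% of all genes with as many. PAX3 is the clearest case of a flat sum with moving parts: 2 of its 7 regions passed as higher, 3 as lower, and its gene sum was level. In PAX7, by contrast, 9 of 26 regions passed as higher and 0 as lower, and in TBX5 8 of 13 as higher and 0 as lower.

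**Figure D2:**
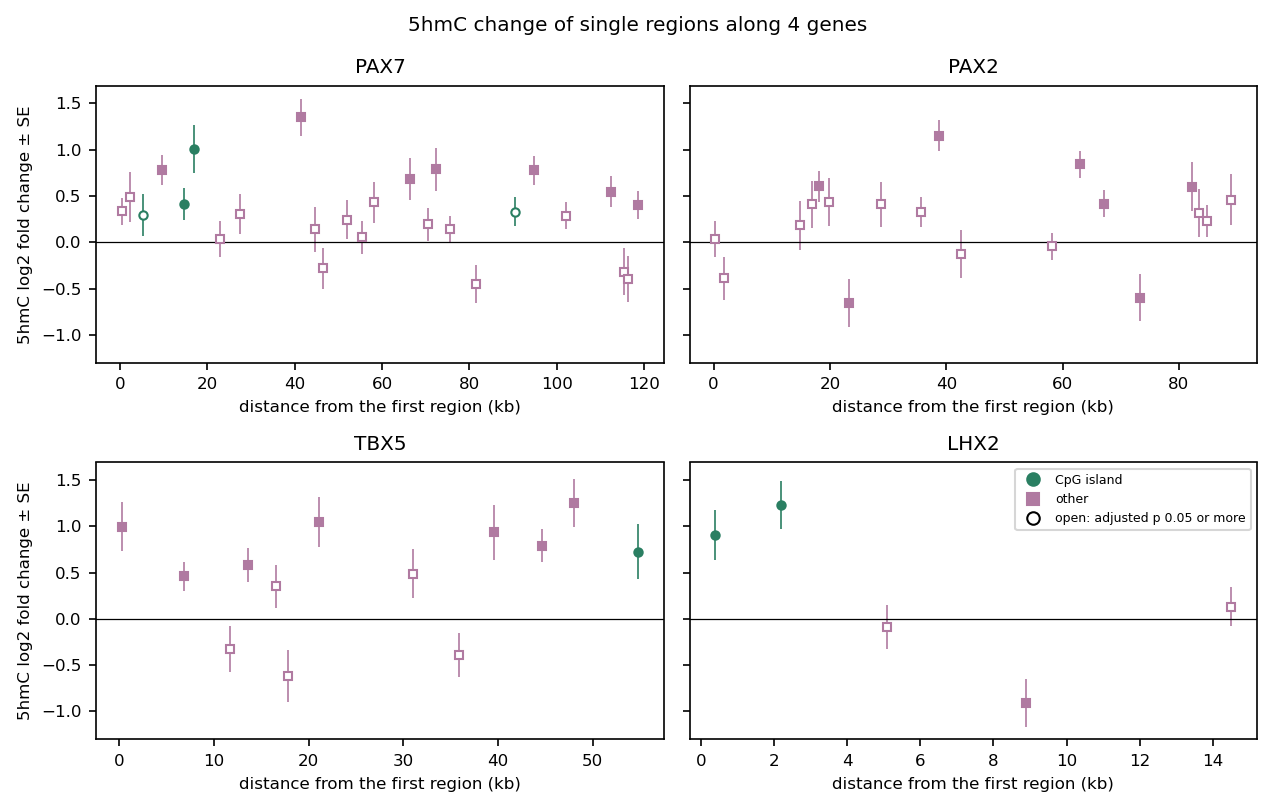
5hmC log2 fold change (differentiated over undifferentiated, error bars ± SE) of each region along PAX7, PAX2, TBX5 and LHX2, against distance in kb from the first region of the gene; circles are CpG island regions, squares other regions, and filled symbols have an adjusted p under 0.05. PAX7 has 9 filled symbols above 0 and none below, whereas LHX2 has its 2 island regions above 0 and 1 other region below.

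CpG island regions of these genes were higher more often than not. Of the 42 island regions 30 passed as higher and 1 as lower, the exception being a region of NKX2-5, where 42.1% of all island regions were higher and 3.77% lower; the median log2 fold change was 0.62 against 0.38 for all island regions. Of the 42 shore regions 19 passed as higher and 1 as lower (22.5% and 22.9% of all shores), and of the 100 regions farther than 2000 bases from an island 41 and 13 (27% and 23.7%). Rises were thus found in all 3 classes of region, and falls mostly away from islands.

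Summed per gene, island regions passed as higher in 18 of 28 genes and as lower in 0, against 40.6% and 3.54% of all genes with island regions; the median was 0.60 against 0.36. In 19 of the 28 the libraries of each state were separated as higher and in 0 as lower (43.9% and 5.31% of all). Sums over other regions passed as higher in 18 of 33 genes and as lower in 0, against 26.1% and 25.9%; the median was 0.34 against 0.0047, and 21 were separated as higher and 0 as lower (27.7% and 29.5%). Without TMM, 4 island sums passed as higher and 0 as lower, and 9 other sums as higher and 5 as lower. Of all 3673 island sums 240 then passed as higher and 162 as lower. Of all 20112 other sums 1514 passed as higher and 8869 as lower. TBX15 had the largest island change (log2 fold change 1.20, SE 0.27): its island region held 0.732, 0.627 and 0.483 CPM before and 1.24, 1.88 and 1.47 after differentiation. LHX2, of forebrain and eye, followed at 1.08 (SE 0.21).

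**Figure D3:**
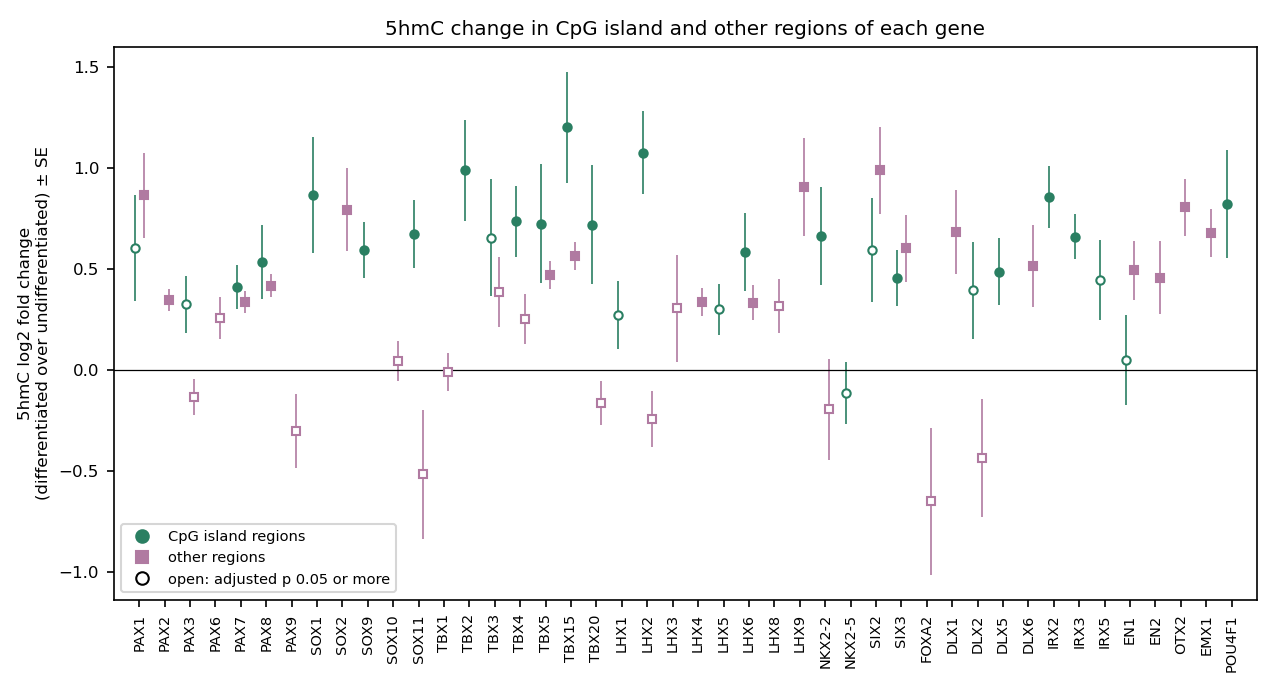
5hmC log2 fold change (differentiated over undifferentiated, error bars ± SE) of each gene's summed CpG island regions (circles) and other regions (squares); filled symbols have an adjusted p under 0.05 (edgeR). Island values are above 0 for 27 of 28 genes and other values for 24 of 33, and without TMM 4 island and 9 other sums passed as higher and 0 and 5 as lower.

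The share of genes whose island and other regions changed differently was that of the background. The test of the difference itself (edgeR, class by state with the library as a block) could be run on 17 genes: in 5 the island change was the higher and in 0 the lower, where 29% and 3.08% of all 3381 genes gave these results; the median difference was 0.28 against 0.29 for all. The difference was largest in LHX2. Its island regions rose from 1.57, 1.21 and 1.87 to 2.99, 3.85 and 3.13 CPM, while its other regions held 5.15, 4.58 and 4.89 and then 3.66, 5.19 and 4.01 CPM. The islands separated the states and the other regions did not, a difference of 1.32 in log2 change (SE 0.23, edgeR adjusted p = 2.80e-04).

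SOX11, a SOXC factor of maturing neurons, had an island sum that rose from 2.58, 2.36 and 2.78 to 4.62, 4.21 and 3.66 CPM, beside other counts of 0.651, 1.01 and 1.27 and then 0.676, 0.895 and 0.501 CPM. The difference in log2 change was 1.17 (SE 0.34, edgeR adjusted p = 0.0108; 0.062 without differentiated replicate 3). In TBX20 it was 0.88 (SE 0.29, adjusted p = 0.0228), in NKX2-2, of endocrine pancreas and ventral neural tube, 0.83 (SE 0.32, adjusted p = 0.0462), and in PAX3 0.46 (SE 0.16, adjusted p = 0.0271). These 3 were the less stable calls. TBX20 had 0.58 (adjusted p = 0.217) without undifferentiated replicate 1 and an adjusted p of 0.053 without undifferentiated replicate 3 and, likewise, without differentiated replicate 1. NKX2-2 had an adjusted p of 0.109 to 0.208 without undifferentiated replicates 2 or 3 or differentiated replicates 1 or 3, and a difference of 1.29 without undifferentiated replicate 1. PAX3 had 0.091 to 0.167 without undifferentiated replicates 1 or 2 or differentiated replicate 1. Leaving out 1 library gave 3 to 7 called genes, and 573 to 1220 of all 3381 genes with a higher island change.

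The listed 5mC regions, with 6076100 to 9670011 counts per library, were only those that the authors' own test had ranked highest, with a largest p of 0.0165 and a largest adjusted p of 0.0826 in their deposited table. Every 5mC region was therefore chosen for a difference between the states. Libraries that do not overlap between the states are favoured by that choice, and such genes were not counted over the whole list. In this list 83.9% of the 12637 genes passed. Against that background 11 of the 21 genes were higher and 5 lower in differentiated cells (38.9% and 44.9% of all), with a median log2 fold change of 0.40 against −0.051, and 5 did not pass. Without TMM the split was 2 higher and 8 lower, with the median of all genes at −0.31. With TMM from strong regions it was again 2 and 8, with that median at −0.34. Of all 12637 genes, 1405 were higher and 6835 lower without TMM, and 1011 and 7042 with TMM from strong regions. Of the 32 regions 11 passed as higher and 10 as lower (35.7% and 37.1% of all), shares near the background. By the authors' deposited table, 13 of the 32 were higher and 10 lower at an adjusted p under 0.05. These are calls of the test that ranked the list, and they were not counted over all listed regions. Regions were adjusted over 328588 tests, the number the authors' values imply, so a gene with 1 region can pass while its region does not. This held for SOX1, DLX6, EN1, PAX6 and LHX4 (edgeR adjusted p over regions of 0.072, 0.084, 0.074, 0.101 and 0.083).

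OTX2 had the largest 5mC rise. Its region at chr14:57281001-57281600, a shore 3807 bases from the promoter, held 2.42, 3.30 and 2.88 CPM in undifferentiated and 5.18, 5.09 and 5.37 in differentiated libraries (log2 fold change 0.87, SE 0.23, edgeR adjusted p = 6.99e-04). TBX15 rose from 7.41, 7.51 and 6.06 to 10.3, 11.7 and 12.1 CPM over 2 regions (0.69, SE 0.15, edgeR adjusted p = 6.13e-05). Its region at chr1:119531001-119532200, on an island at promoter distance 0, rose by 0.87 (SE 0.23, edgeR adjusted p = 0.00661 over regions). In both genes the states were fully separated, but listed 5mC regions were chosen for such a difference.

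Next came SOX1 (0.67, SE 0.26), PAX9 (0.63, SE 0.21), PAX6 (0.63, SE 0.27) and DLX6 (0.55, SE 0.23), with edgeR adjusted p values of 0.0158, 0.00512, 0.0247 and 0.0212. PAX9, which shapes teeth and pharyngeal pouches, held 4.85, 3.15 and 3.61 CPM and then 5.75, 5.77 and 6.63 at chr14:37123401-37124000, a shore 2774 bases from the promoter. DLX6, of the jaw and limb, dropped to 0.34 (adjusted p = 0.197) without undifferentiated replicate 1 and had adjusted p values of 0.0595 and 0.0504 without differentiated replicates 2 and 3, and PAX6 to 0.36 (adjusted p = 0.256) without differentiated replicate 2 (0.068 without undifferentiated replicate 3). SOX1 had an adjusted p of 0.059 without undifferentiated replicate 2. EN1, LHX8, TBX3, SOX10 and IRX3 rose by 0.40 to 0.52.

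FOXA2 had the largest 5mC fall. At chr20:22568801-22569200, a shore 2700 bases from its promoter, it held 4.18, 3.60 and 3.03 CPM in undifferentiated and 2.03, 1.65 and 1.60 in differentiated libraries, without overlap (−1.03, SE 0.28, edgeR adjusted p = 8.17e-04). LHX6, of cortical interneurons, held 4.04, 3.15 and 3.46 CPM and then 2.25, 2.34 and 1.26 at chr9:124994801-124995200 (−0.88, SE 0.27, edgeR adjusted p = 0.00344). PAX2 held 11.7, 9.46 and 13.3 CPM and then 7.66, 7.97 and 5.83 (−0.69, SE 0.15, edgeR adjusted p = 7.29e-05). These 3 genes separated the states, which the choice of listed regions favours. LHX4, of the pituitary, fell by 0.51 (SE 0.21, edgeR adjusted p = 0.0208) and TBX20 by 0.44 (SE 0.16, adjusted p = 0.00919). LHX4 had adjusted p values of 0.125, 0.079 and 0.056 without undifferentiated replicate 1, differentiated replicate 1 and differentiated replicate 2, and TBX20 one of 0.055 without undifferentiated replicate 2. Among single regions, TBX4, of the hindlimb, had the third largest fall, at chr17:59548801-59549600 from 5.25, 5.11 and 5.05 to 2.93, 2.47 and 2.97 CPM (−0.87, SE 0.23, edgeR adjusted p = 0.00615), while another region of TBX4 had a log2 fold change of 0.72, and its sum did not pass.

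Split by class, all 7 genes with island 5mC regions passed as higher, and 0 as lower, where 83.9% and 15.8% of all such genes in the list did so; without TMM 1 of the 7 passed. Other regions gave 7 higher and 5 lower of 17 genes (37.3% and 46.6% of all). Of the 7 island regions 6 passed as higher and 0 as lower (70.7% and 8.7% of all), and of the 18 regions farther than 2000 bases from an island 3 and 8 (34.7% and 37.8%). All 10 regions that passed as lower lay outside islands. Without TMM and with TMM from strong regions, no 5mC region of these genes passed as higher. Of all listed regions, 2494 of 65534 passed as higher without TMM and 1732 of 65530 with TMM from strong regions.

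The 21 genes with both marks are set side by side here; the libraries of both marks came from the same DNA preparations, so the 2 columns of values are not independent of each other. In 7 genes both sums passed as higher: SOX1, TBX3, TBX15, DLX6, IRX3, EN1 and OTX2. That is so in 18.8% of the 12329 genes with both marks, and a higher 5hmC with a lower 5mC sum in 4.08%. In PAX2, LHX4 and LHX6 the 5hmC sum passed as higher and the listed 5mC sum as lower: 5hmC log2 fold changes of 0.35, 0.34 and 0.38 stood beside 5mC changes of −0.69, −0.51 and −0.88. Without TMM the 5hmC rise passed in none of these 3 (0.12, 0.12 and 0.16; edgeR adjusted p of 0.137, 0.249 and 0.213), and with TMM from strong regions it was 0.053, 0.047 and 0.087. PAX7, PAX8 and TBX4 passed in 5hmC only, PAX6, PAX9, SOX10 and LHX8 as higher in 5mC only, TBX20 and FOXA2 as lower in 5mC only, and PAX3 and TBX1 in neither. The difference in change between the marks was not tested, and under library totals without TMM only OTX2 and TBX15 of the 21 genes passed as higher in 5mC.

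**Figure D4:**
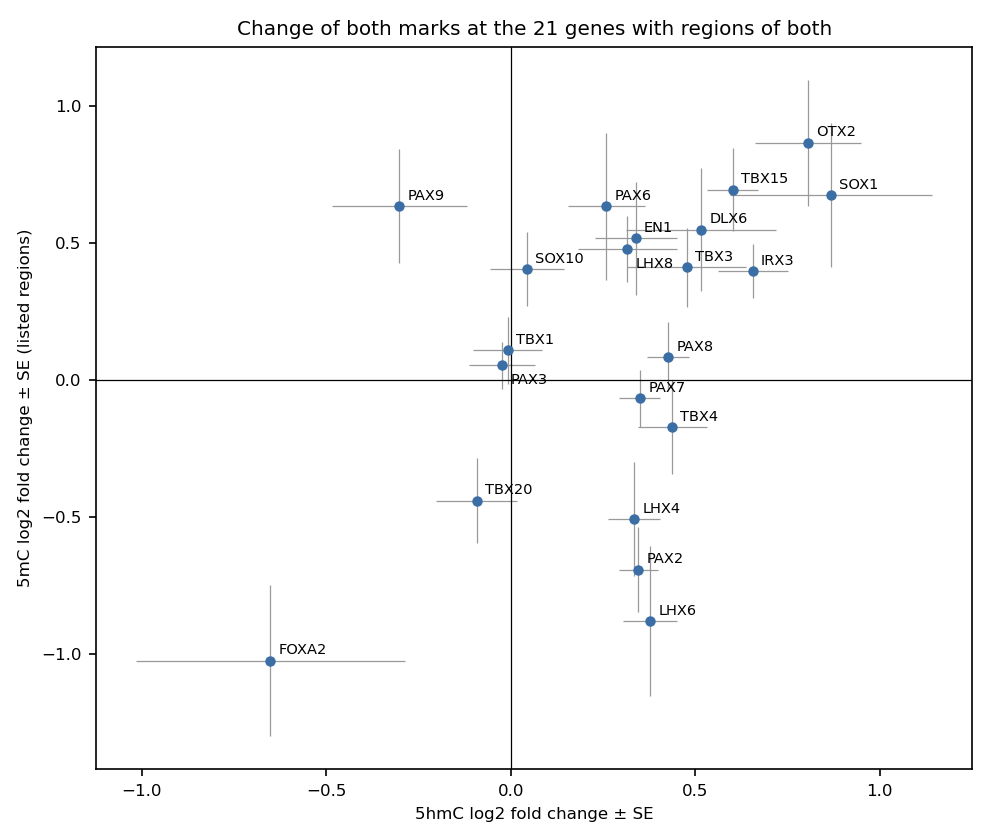
5mC against 5hmC log2 fold change (differentiated over undifferentiated, error bars ± SE) of the 21 genes with regions of both marks; 1 point per gene. OTX2, SOX1 and TBX15 lie at the upper right, PAX2, LHX4 and LHX6 at the lower right with 5mC below 0, and FOXA2 at the lower left; without TMM all 5hmC and 5mC values are lower by about the shift of the median of all genes.

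The sums of the 2 marks need not cover the same DNA. Of the 32 5mC regions 18 overlapped a 5hmC region of the same gene by at least 1 base, in 19 pairs, and both regions of a pair passed in 8. Pairs in IRX3, OTX2, TBX15 and TBX3 were higher in both marks and pairs in LHX6, PAX2, PAX3 and TBX20 lower in both. Such pairs were not counted over all genes, so these counts have no background. Without TMM, and with TMM from strong regions, 0 of the 32 5mC regions passed as higher and 12 as lower. None of the pairs then counted as higher in both. Of all listed 5mC regions, 2494 of 65534 passed as higher and 32689 as lower without TMM. With TMM from strong regions 1732 of 65530 passed as higher and 32686 as lower. At chr9:124994801-124995200, 3710 bases from the LHX6 promoter, the same 400 bases changed by −0.62 in 5hmC (edgeR adjusted p = 0.0215) and by −0.88 in 5mC (0.0225), although the 5hmC sum of the gene passed as higher. In PAX2 the 5hmC region at chr10:102523801-102524200 changed by −0.65 (edgeR adjusted p = 0.0309) and the 5mC region that covers it, chr10:102523801-102524400, by −0.69 (0.0117). The second PAX2 overlap held a 5mC change of −0.69 beside a 5hmC change of −0.041 that did not pass. In PAX2 and LHX6 the 5hmC rise of the gene sum was thus not found in the regions that also had listed 5mC.

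Other genes of these families, a list of 82 that are not among the 58, were counted in the same fits. For 5hmC, 31 of 70 passed as higher (44.3%) and 8 as lower (11.4%), where 27.6% and 24.2% of all genes did so. The median log2 fold change was 0.23, between the 0.44 of the 44 genes and the 0.026 of all genes. FOXB1 and NKX2-3 were among those that rose (0.70 and 0.68), and FOXI3, EOMES, a T-box factor of mesoderm and T cells, and NKX1-2 had the largest falls (−0.62, −0.58 and −0.54; edgeR adjusted p of 0.0274, 0.00296, 0.0174, 0.0023 and 0.0158 in this order). For 5mC, 13 of 34 passed as higher (38.2%) and 14 as lower (41.2%), near the 38.9% and 44.9% of all genes. FOXP3, whose libraries overlapped between the states, and SOX6 were among the higher (0.57 and 0.50). EMX2 and LMX1A were among the lower (−1.001 and −0.84). These genes were not counted under the other scalings.

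As a check of the line, MYC, which HL-60 is known to carry in amplified form, had 7.35 CPM per kb of 5hmC and 21.3 of 5mC, above the medians of all genes, and CDKN2A, known to be deleted in HL-60, had 1.81 and 4.05, below the medians but not at 0. The MYC values come from 1 region in each mark, 83400 bases wide in 5hmC and 83000 in 5mC, so they describe that whole stretch. Whether the listed CDKN2A regions lie inside the deleted stretch was not tested. At genes of the myeloid program, under the TMM scaling, 5hmC at ITGAM, which encodes CD11b, changed by 0.19 (SE 0.061). At MPO, of granules of immature cells, it changed by −0.82 (SE 0.13). The wide MYC region changed by −0.38 (SE 0.075) in 5hmC and by −0.54 (SE 0.034) in 5mC. For CDKN2A these changes were 0.11 (SE 0.21) and 0.48 (SE 0.18). Other scalings were not compared for these genes. No input library was used, so a change in marked DNA and a change in copy number cannot be told apart.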

How the data were processed

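Deposited read counts per enriched region, for 6 libraries of each mark, were used. Per the submitters' processing notes, BWA, SAMtools 0.1.18, bedtools 2.17.0, SICER 1.1 and edgeR 2.11 were used on GRCh37 (hg19), with no role stated; the counts are not normalized, per the values in the files. The authors' deposited log2 fold changes, p-values and adjusted p-values were used only for the sign and number of called regions and for the extent of the 5mC list. Whether regions were called on pooled libraries was not stated.

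Counts were summed per gene over regions inside it or within 5000 bases of its promoter, and also over regions at distance 0 from a CpG island and over the others. Regions whose gene names a spreadsheet had turned into dates (786 5hmC, 136 5mC) were not matched to genes, and 327931 of the 327949 5hmC regions had counts. All features were fitted in R 4.3.3 with edgeR 4.0.16 (filterByExpr, TMM from the region table, quasi-likelihood F test, Benjamini-Hochberg, threshold 0.05), and SE was taken from the log2 fold change and F. DESeq2 1.42.0 was an alternative. The fits were tested on simulated counts.

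The members and gene lists were chosen with earlier results of these data known. Named genes were those with the largest called rises (10 in 5hmC, 6 in 5mC) and falls, those with a called island difference, the 3 highest and 3 lowest in 5hmC, those without a region, and the 3 regions with the largest called change in each direction; SOX10, EMX1 and TBX15 in 5hmC, PAX3 and TBX20 as gene sums, SOX3, and other genes named in counts were added after their values were seen. Some genes of the family list that this rule would name are not reported here.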

Additional observations from a re-analysis of the deposited data

How the results depend on the processing

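Among gene sums, scaling moved more calls than any other setting run. Among the 5hmC regions of these genes, 90 higher and 15 lower became 44 and 25 with library totals without TMM and 30 and 33 with TMM from strong regions. Gene sums went from 29 higher and 0 lower to 13 and 4 and to 11 and 6, island sums from 18 higher to 4 and 4, and other sums from 18 and 0 to 9 and 5 and to 8 and 8. Over all genes the share of higher among called genes was 53.3%, 15.7% and 9.02%. For 5mC, regions went from 11 higher and 10 lower to 0 and 12 under both, gene sums from 11 and 5 to 2 and 8 under both, island sums from 7 to 1 and 0, and other sums from 7 and 5 to 1 and 8 under both. Of all listed 5mC regions, 2494 of 65534 were higher without TMM and 1732 of 65530 with TMM from strong regions. DESeq2 called 19 5hmC genes higher, and in 5mC 7 higher and 3 lower. Of all 20404 genes, DESeq2 called 3854 higher and 3656 lower in 5hmC. With promoters within 2000 bases 3 5mC genes passed as lower. Adjusted over the listed regions only, 20 5mC regions passed as higher, as did 32844 of all 65529. The cause of these moves was not tested.

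Leaving out 1 library gave 58 to 89 higher and 8 to 18 lower 5hmC regions, 21 to 29 higher and 0 to 1 lower genes, 13 to 19 higher island sums, 16 to 18 higher and 0 to 3 lower other sums, and 3 to 7 genes with a higher island change. For 5mC it gave 3 to 9 higher and 5 to 8 lower regions, 8 to 10 higher and 4 to 5 lower genes, 5 to 7 higher island sums, and 5 to 6 higher and 4 to 5 lower other sums. The counts over all features moved too. All 5hmC regions gave 57393 to 90314 higher and 43368 to 78418 lower, and all 5hmC genes 3968 to 5970 and 3545 to 5159. All island sums gave 920 to 1700 higher. All listed 5mC regions gave 14129 to 15162 higher and 14949 to 15543 lower, and all 5mC genes 4379 to 4472 and 5182 to 5308. Of the called genes, 9 of 29 in 5hmC (EMX1, IRX3, OTX2, PAX1, SIX2, SOX2, TBX2, TBX5 and TBX15) and 5 of 16 in 5mC (FOXA2, LHX6, OTX2, PAX2 and TBX15) kept their call in every setting that gave them a value.

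Deviations of same-numbered libraries correlated at −0.00021, −0.112 and −0.119 in 5hmC and at 0.011, 0.0057 and −0.00995 in 5mC. Differently numbered 5hmC libraries ran from −0.030 to 0.114. These deviations were taken from a mean of 3 libraries per state, so they cannot show whether the cultures were paired. With the replicate block 23 5hmC genes passed as higher and 0 as lower, and the 5mC genes stayed at 11 and 5. Of all genes, 4703 of 20404 then passed as higher and 4223 as lower in 5hmC, and 4922 of 12637 and 5679 in 5mC.

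Signs turned only in genes that had not passed, among which 5mC PAX3 then passed as lower under both other scalings. In 5hmC without TMM these were DLX2 (−0.15), LHX2 (−0.0084) and SOX10 (−0.18), and with TMM from strong regions DLX2 (−0.22), LHX1 (−0.011), LHX2 (−0.080), NKX2-2 (−0.035), PAX6 (−0.021) and SOX10 (−0.25). With the block TBX1 was at 0.0084. NKX2-5 was at 0.052 without undifferentiated replicate 1; PAX3 at 0.066 and TBX1 at 0.0040 without undifferentiated replicate 3; PAX3 at 0.020, SOX10 at −0.0065 and TBX20 at 0.043 without differentiated replicate 1; and PAX3 at 0.020, SOX10 at −0.042 and TBX1 at 0.081 without differentiated replicate 3. The other regions of NKX2-2 were at 0.056 without undifferentiated replicate 3. Over the left-out libraries, the other ends of these ranges were −0.094 for PAX3, 0.14 for SOX10, −0.045 for TBX1 and −0.39 for the other regions of NKX2-2. In 5mC, PAX3, PAX8 and TBX1 were at −0.20, −0.17 and −0.15 without TMM and at −0.24, −0.21 and −0.19 with TMM from strong regions, PAX8 at −0.0076 without undifferentiated replicate 2 (its highest value was 0.25) and PAX7 at 0.026 without undifferentiated replicate 3. With promoters within 2000 bases PAX3 was at −0.086 and PAX7 at 0.097, and with regions of 1 gene only PAX3 was at −0.086.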
